A study of Mus musculus with 12 samples.

Results

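Natural killer (NK) cells and CD8 T cells taken from the same kind of tumour were compared in mice with intact TYK2, over all genes counted. The members are the 4 wild-type (WT) libraries, 2 of NK cells (NK WT) and 2 of CD8 T cells (CD8 WT), out of the 12 libraries of the series, and they were chosen by cell type and genotype as given in the sample titles. All groups came from mice that carried transplants of MC38, a mouse colon adenocarcinoma cell line, injected under the skin of both flanks. The cell line was the same in all groups, and the tumours were taken 8 to 10 days later. After collagenase and DNase digestion and magnetic enrichment for CD45, 300 cells per library were sorted as CD45+ CD3ε- NK1.1+ (NK) or CD45+ CD3ε+ CD8a+ (CD8), and the RNA was amplified with Smart-seq2, which copies polyadenylated RNA from very small inputs. The WT mice were C57BL/6N, and the study's methods give mice of 6 to 12 weeks, matched for sex and age, for the transplants. The other 8 libraries, used here for the shared estimate of spread and for a side-by-side reading, came from the same 2 cell types of mice with a deletion of Tyk2 (KO, Tyk2-/-) or with a kinase-inactive TYK2 (KE, Tyk2 K923E), 2 libraries per group. The labels number the replicates but do not say whether 2 replicates came from different mice, so p-values measure the spread between these libraries only.

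NK cells are innate lymphocytes that read the balance of activating and inhibitory receptors, many of them lectin-like receptors encoded side by side in the NK gene complex, and they signal through small adaptors with activation motifs. CD8 T cells recognise peptide on MHC class I through a rearranged T cell receptor, which signals through the CD3 chains and the CD8 coreceptor. Both cell types kill with perforin and granzymes and release interferon-γ, and T cells that meet antigen for long in a tumour are known to carry checkpoint receptors such as PD-1.

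Total counts of the 4 WT libraries lay between 12383050 and 14732882, so that a count of 3, the limit that a count of 0 allows, is 0.218 to 0.251 CPM (counts scaled to 1e+06 per library, with TMM factors). Such limits and intervals cover counting error only. Across genes, log2 CPM correlated with Pearson's r of 0.767 between the NK WT libraries and 0.766 between the CD8 WT libraries, and of 0.658 to 0.67 between the cell types. Genes are not independent replicates, so these are descriptions. Both NK WT libraries stood apart from most of the series by transcripts of macrophages and monocytes. The summed level of 37 such genes was 24562 and 26152 CPM in the NK WT libraries and 742 and 1164 CPM in the CD8 WT libraries. In the mutants it was 14643 CPM in NK KO replicate 1 and 360.5 to 1547 CPM in the other 7 libraries. The values of these genes follow after the lymphocyte genes, and no result below was computed on NK WT libraries free of them.

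The genes of the sort gates and of the lineage markers were read first, as a check of the labels. Cd8a and Cd3e, gated upon for CD8 cells, lay far higher in CD8 WT. Cd8a was at 4.52 and 2.7 CPM in NK WT against 2843 and 3851 CPM in CD8 WT, and Cd3e at 8.96 and 7.17 CPM in NK WT against 968 and 994 CPM in CD8 WT. Klrb1c, which encodes NK1.1, was at 1066 and 1435 CPM in NK WT against 2.30 and 2.32 CPM in CD8 WT. Ptprc, which encodes CD45 and was gated in both cell types, was at 2424 and 2786 CPM in NK WT against 2518 and 2105 CPM in CD8 WT. Ncr1, which encodes the NK receptor NKp46 and was not gated upon, was at 843 and 934 CPM in NK WT against 1.63 and 1.52 CPM in CD8 WT. All 4 libraries therefore carried the markers of their label. The sort fixed the direction of the gated genes, which are no findings. Tyk2 itself was at 60.8 and 68.9 CPM in NK WT against 48.3 and 86.1 CPM in CD8 WT, so the levels overlapped.

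Of 13279 genes tested, 46 (0.346%) were called higher in NK WT and 57 (0.429%) were called higher in CD8 WT, where a call needs an edgeR false discovery rate (FDR, adjusted over all genes tested) under 0.05 together with a log2 fold change of 1 or more in size. A positive log2 fold change means higher in NK cells throughout. At an unadjusted p under 0.05 there were 725 genes in the NK direction and 635 in the CD8 direction, and the 13279 genes had a median log2 fold change of 0.007. In every called gene the NK and CD8 libraries did not overlap, but this was also so for 21.6% of all genes tested in the NK direction and 19.5% in the CD8 direction. The plot of level against difference shows the called genes at middle to high levels, and none among the lowest. In bulk libraries a lower share of cells that hold a transcript and less RNA of it per cell cannot be told apart.

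**Figure D1:**
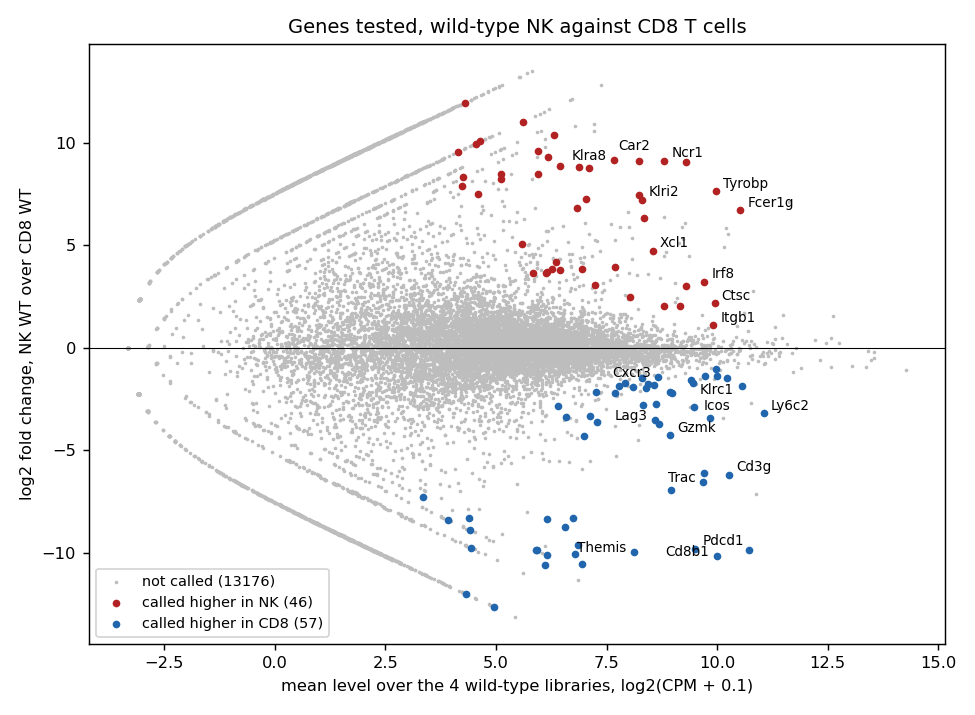
Each point is 1 of the 13279 genes tested, placed by its mean level in the 4 wild-type libraries, log2(CPM + 0.1), and by its log2 fold change, NK WT over CD8 WT. Red points are the 46 genes called higher in NK and blue points the 57 called higher in CD8, and grey points, some of them as far from 0, were not called.

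Many calls were lost when a WT library was left out, and other settings, given below, removed further ones. When the 4 WT libraries were left out one at a time, 16 of the 46 NK calls and 16 of the 57 CD8 calls remained in all 4 fits, with the lone library of a group assumed to vary like the others. Without NK WT replicate 1, 29 NK and 22 CD8 calls remained, and without NK WT replicate 2, 26 and 21. Without CD8 WT replicate 1 the numbers were 20 and 24, and without CD8 WT replicate 2 they were 20 and 31. Among the NK genes that remained in all 4 were Car2, Gas7, Gm20743, Klra14-ps, Klra4, Klra7, Klra8, Klrb1b, Klrb1c, Klri2, Ncr1, Rnf130, Sh2d1b1, Trdv4 and Tyrobp. The CD8 genes that remained were Adgrg5, Ccr8, Cd3e, Cd5, Cd6, Cd8a, Cd8b1, Icos, Ly6c2, Ms4a6b, Ndfip1, Runx2, Slamf1, Themis, Trac and Trbc2. The calls named below and not here were lost without at least 1 WT library, and the sign of all 103 genes was kept in these fits.

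The T cell receptor complex was the list with the most calls in the CD8 direction. Of 23 genes that encode receptor chains, the coreceptor and the proximal signalling proteins, 13 were called higher in CD8 WT and 0 higher in NK WT, with a median log2 fold change of -2.73 against 0.007 over all genes tested. The genes of the CD3 chains stand together on chromosome 9 (GRCm38), with Cd3g at chr9:44969572-44980431 on the minus strand and Cd3d at chr9:44981786-44987339 on the plus strand, so that they are transcribed away from each other. Their promoters, 250 bases before to 50 bases after the start as given by RefSeq for GRCm38.p6, are shown because both genes differed in the same direction. Cd3g is read from chr9:44980382-44980681 (minus strand) and Cd3d from chr9:44981536-44981835 (plus strand), and 1355 bases separate the starts. Capitals mark the ETS core AGGAAG and the TCF/LEF core CTTTGAT, found on either strand.
Cd3g: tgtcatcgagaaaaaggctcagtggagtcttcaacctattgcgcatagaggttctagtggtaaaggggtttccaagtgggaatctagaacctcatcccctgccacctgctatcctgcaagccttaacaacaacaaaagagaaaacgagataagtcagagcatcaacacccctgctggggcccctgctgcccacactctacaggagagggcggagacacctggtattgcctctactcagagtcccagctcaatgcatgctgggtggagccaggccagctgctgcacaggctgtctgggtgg
Cd3d: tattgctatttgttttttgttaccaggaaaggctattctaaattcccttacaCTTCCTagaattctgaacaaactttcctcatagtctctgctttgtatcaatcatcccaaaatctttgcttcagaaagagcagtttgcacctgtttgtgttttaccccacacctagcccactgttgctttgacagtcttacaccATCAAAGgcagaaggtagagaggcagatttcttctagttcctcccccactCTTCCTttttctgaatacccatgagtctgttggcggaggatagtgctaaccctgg

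The stretch of Cd3g held none of the motifs searched, and that of Cd3d held ETS cores and 1 TCF/LEF core. Cd3d was at 12.1 and 36.2 CPM in NK WT against 1669 and 1621 CPM in CD8 WT, and Cd3g at 14.7 and 52.4 CPM in NK WT against 2662 and 2182 CPM in CD8 WT. The difference was large in both (log2 fold change -6.09, SE 0.88, edgeR FDR 0.00916 for Cd3d, and log2 fold change -6.17, SE 0.99, edgeR FDR 0.0172 for Cd3g), and neither overlapped between cell types. Cd8b1, which encodes the other chain of the gated coreceptor and was not itself gated, was at 2.01 and 1.54 CPM in NK WT against 2073 and 1977 CPM in CD8 WT and gave the smallest FDR of the comparison (log2 fold change -10.15, SE 0.30, edgeR FDR 7.09e-08).

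The constant segments of the receptor differed by locus. Trac, of the α chain, was at 23.4 and 11.7 CPM in NK WT against 1299 and 1921 CPM in CD8 WT (log2 fold change -6.52, SE 0.66, edgeR FDR 0.00101). Trbc2, of the β chain, was at 161 and 152 CPM in NK WT against 1832 and 1521 CPM in CD8 WT (log2 fold change -3.42, SE 0.28, edgeR FDR 2.31e-04), so that the NK WT libraries held it too. Trbc1, the other β constant segment, was at 492 and 444 CPM in NK WT against 411 and 425 CPM in CD8 WT and was not called (log2 fold change 0.16, SE 0.51, edgeR FDR 1), and 2 β joining segments were called in the opposite direction. Trbj1-1 was at 152 and 136 CPM in NK WT against 10.3 and 9.36 CPM in CD8 WT and Trbj1-2 at 106 and 107 CPM in NK WT against 10.8 and 6.31 CPM in CD8 WT, with log2 fold changes of 3.87 and 3.64 and edgeR FDR of 0.0195 and 0.0243. The segments of these loci are short and similar, and only reads with a single alignment were counted, so their counts are uncertain.

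Themis, Cd6, Cd5 and Sit1, whose proteins tune signals of the receptor, were near 0 in NK cells. Themis, needed for T cell selection in the thymus, was at 0.502 and 0.617 CPM in NK WT against 533 and 577 CPM in CD8 WT (log2 fold change -9.93, SE 0.64, edgeR FDR 3.07e-05). Cd6, a scavenger receptor of T cells, was at 0.167 and 0.231 CPM in NK WT against 166 and 278 CPM in CD8 WT (log2 fold change -10.05, SE 0.65, edgeR FDR 3.07e-05), and its relative Cd5 differed by -8.72 on the log2 scale. Sit1 held 3 counts in all in the NK WT libraries, which gives a ratio of 1016 with a 95% counting interval of 348 to 4926. Other signalling and surface proteins of the list differed less. Lat was called at a log2 fold change of -3.69, Cd28 at -2.73 and Cd2 at -1.36, whereas Lck at -0.91 (edgeR FDR 0.0175, below the fold threshold), Zap70 at -0.82 and Cd247 at -1.19 were not called. Cd247, the ζ chain that T cell receptors and several NK receptors share, was at 209 and 190.4 CPM in NK WT against 359 and 549 CPM in CD8 WT.

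**Figure D2:**
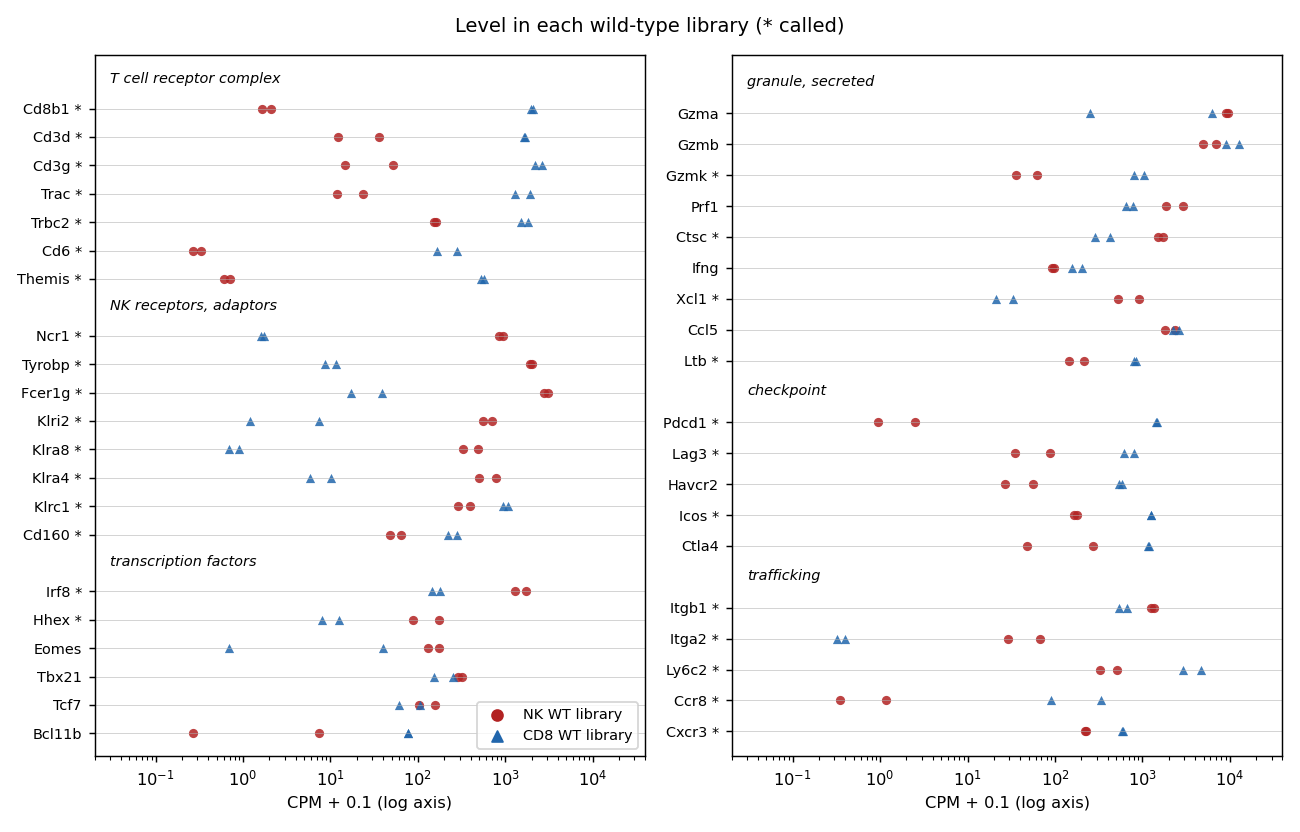
Each row is a gene and each point the level in 1 wild-type library, CPM + 0.1 on a log axis, with red circles for the 2 NK WT and blue triangles for the 2 CD8 WT libraries, and a star after each called gene. The 2 cell types lie far apart for Cd8b1 and Ncr1, while the Tcf7 and Ccl5 points overlap and the CD8 points of Gzma lie far from each other.

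Activating NK receptors and their adaptors formed the counterpart. Of 24 genes, 7 were called higher in NK WT and 1 higher in CD8 WT, with a median log2 fold change of 3.92. Ncr1 (chr7:4337724-4345164, GRCm38) had the smallest FDR of the NK direction (log2 fold change 9.13, SE 0.35, edgeR FDR 5.41e-07), and its values are given above. Tyrobp, which encodes the adaptor DAP12, was at 1939 and 2037 CPM in NK WT against 11.4 and 8.63 CPM in CD8 WT (log2 fold change 7.63, SE 0.43, edgeR FDR 1.55e-05). Fcer1g, the γ chain adaptor through which NKp46 signals, was at 2757 and 3058 CPM in NK WT against 38.7 and 17.1 CPM in CD8 WT (log2 fold change 6.70, SE 0.98, edgeR FDR 0.0101). Both adaptors were thus among the more abundant transcripts of NK cells and below 40 CPM in CD8 cells, with no overlap. Myeloid cells use both adaptors too, and the NK WT libraries held myeloid transcripts. In the 3 mutant NK libraries with few of them, Tyrobp was at 1604 and 1943 CPM (NK KE) and 1672 CPM (NK KO replicate 2), far above both CD8 WT libraries. For Fcer1g these values were 2285 and 2335 CPM and 2314 CPM. With the myeloid covariate, described below, the Tyrobp call was kept and the Fcer1g call was lost, as were most NK calls. The part of the myeloid transcripts in these levels was not tested.

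The promoters of Ncr1, chr7:4337465-4337764 (plus strand), and Fcer1g, chr1:171234300-171234599 (minus strand), are shown because the receptor and its adaptor differed together. Capitals mark the RUNX core TGTGGT and the ETS core AGGAAG on either strand.
Ncr1: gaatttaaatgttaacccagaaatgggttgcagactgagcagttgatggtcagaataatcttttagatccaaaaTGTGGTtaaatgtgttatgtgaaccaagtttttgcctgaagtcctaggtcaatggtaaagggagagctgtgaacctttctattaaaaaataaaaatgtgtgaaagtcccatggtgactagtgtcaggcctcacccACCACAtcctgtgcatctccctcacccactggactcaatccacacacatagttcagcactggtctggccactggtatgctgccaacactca
Fcer1g: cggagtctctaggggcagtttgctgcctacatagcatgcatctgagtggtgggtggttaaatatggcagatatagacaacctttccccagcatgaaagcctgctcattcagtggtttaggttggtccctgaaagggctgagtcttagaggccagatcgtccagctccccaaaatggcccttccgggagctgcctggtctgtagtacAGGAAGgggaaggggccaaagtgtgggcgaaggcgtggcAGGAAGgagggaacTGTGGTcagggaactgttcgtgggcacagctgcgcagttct

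Both stretches held a RUNX core. Over the promoters on hand, TGTGGT was found in 40.6% of the 32 matched genes called higher in NK, 22.5% of the 40 called higher in CD8 and 13.3% of the 9372 matched among all genes tested. AGGAAG was found in 50%, 60% and 34.3%. The T-box core GGTGTGA was found in 12.5%, 2.5% and 3.31%, and CTTTGAT in 3.12%, 2.5% and 2.53%. These shares are descriptions of letters in windows of 300 bases and were not tested. They rest on few promoters, for TGTGGT on 13 in the NK and 9 in the CD8 direction and for GGTGTGA on 4 and 1. The NK calls include Ly49 genes, near copies of each other, so their promoters need not be independent.

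Among the other activating genes, Klri2 was at 549 and 695 CPM in NK WT against 1.11 and 7.26 CPM in CD8 WT (log2 fold change 7.21, SE 0.87, edgeR FDR 0.00322). Klre1 differed less, at 531 and 909 CPM in NK WT against 123 and 224 CPM in CD8 WT (log2 fold change 2.05, SE 0.37, edgeR FDR 0.0346). Sh2d1b1, which encodes the adaptor EAT-2 of SLAM family receptors, held 4 counts in all in the CD8 WT libraries and was at 105 and 143 CPM in NK WT (log2 fold change 9.63, SE 1.30, edgeR FDR 0.00584). The call in the opposite direction was Cd160, a receptor for HVEM, at 63.8 and 47.9 CPM in NK WT against 219 and 282 CPM in CD8 WT (log2 fold change -2.17, SE 0.37, edgeR FDR 0.0248). Klrb1f, the remaining call, is described with the mutants. Klrk1, which encodes NKG2D, was at 1577 and 1697 CPM in NK WT against 1061 and 1197 CPM in CD8 WT, and its adaptor Hcst (DAP10) at 158 and 224 CPM in NK WT against 232 and 258 CPM in CD8 WT. Klrk1 was above in NK and Hcst above in CD8 without overlap, and neither was called.

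Inhibitory receptors were split by family. Of 17 genes tested out of 21, 5 were called higher in NK WT and 1 higher in CD8 WT, with a median log2 fold change of 5.92. The 5 were 4 Ly49 genes and Klrb1b. Klra8 and Klra4 encode Ly49H and Ly49D, which are activating members of the Ly49 family, although they stand in this list. Klra8 was at 331 and 484 CPM in NK WT against 0.593 and 0.798 CPM in CD8 WT (log2 fold change 9.17, SE 0.54, edgeR FDR 1.75e-05). Klra4 was at 780.5 and 503 CPM in NK WT against 10.1 and 5.73 CPM in CD8 WT, Klra7 at 589 and 603 CPM in NK WT against 0.889 and 5.80 CPM in CD8 WT and Klra3 at 153 and 135 CPM in NK WT against 0.222 and 0.218 CPM in CD8 WT, with log2 fold changes of 6.34, 7.47 and 9.29. In all 4 the NK libraries lay far above the CD8 libraries, without overlap. Klrb1b, an NKR-P1 receptor for a Clec2 ligand, was at 322 and 225 CPM in NK WT against 0.815 and 0.435 CPM in CD8 WT (log2 fold change 8.75, SE 0.58, edgeR FDR 3.07e-05). The pseudogene Klra14-ps had a log2 fold change of 8.50. Ly49 genes are near copies of each other, and reads with several alignments were left out, so the level of a single member is uncertain.

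The NKG2 receptors did not share this pattern. Klrc1, which encodes the inhibitory NKG2A chain, was called higher in CD8 WT at 290.5 and 398 CPM in NK WT against 1079 and 938 CPM in CD8 WT (log2 fold change -1.55, SE 0.27, edgeR FDR 0.0273). Its partner Klrd1 (CD94) was at 881 and 1326 CPM in NK WT against 1467 and 1228 CPM in CD8 WT and was not called. Tigit and Cd96, receptors for nectin-like ligands, had log2 fold changes of -0.40 and -1.48 and were not called. Between the outermost Klr genes of chromosome 6, Klrg1 and Klra2 (chr6:122270596-131247362, GRCm38), 107 genes were tested. Without overlap, 52 lay in the NK and 14 in the CD8 direction, beside 21.6% and 19.5% of all genes tested. Of the 107, 11 (10.3%) were called higher in NK, beside 0.346% of all genes tested, and 2 higher in CD8. The 11 are 23.9% of all NK calls. All but Cd9 are Klr genes, the family that set the bounds, so this share is not a separate result. The 2 in the CD8 direction were Klrc1 and Lag3. Cd9, a tetraspanin also in this stretch, was called at 273 and 264 CPM in NK WT against 18.3 and 45.4 CPM in CD8 WT. With the myeloid covariate, described below, its call was lost, as were most NK calls.

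Few transcription factors were called. Of 18 tested T lineage factors, edgeR called 0, with 1 in the NK and 3 in the CD8 direction at an unadjusted p under 0.05 and with 2 higher in CD8 and 0 higher in NK by DESeq2 on the 12 libraries. Tcf7, a factor of early T cells and NK progenitors, was at 104 and 158 CPM in NK WT against 105 and 60.2 CPM in CD8 WT and overlapped. Bcl11b, a T lineage commitment factor, was at 0.167 and 7.24 CPM in NK WT against 76.5 and 76.4 CPM in CD8 WT and did not overlap, but missed the threshold (log2 fold change -4.36, SE 1.64, edgeR FDR 0.389). Of 15 tested NK lineage factors, 2 were called higher in NK WT, and the median was 1.64. Irf8 was at 1732 and 1296 CPM in NK WT against 181 and 144 CPM in CD8 WT (log2 fold change 3.22, SE 0.40, edgeR FDR 0.00379), and Hhex, a homeobox factor, at 87.9 and 176 CPM in NK WT against 12.3 and 7.98 CPM in CD8 WT (log2 fold change 3.70, SE 0.57, edgeR FDR 0.0132). Irf8 is also a myeloid factor. In NK KO replicate 2 and both NK KE libraries, with few myeloid transcripts, it was at 859.9, 608 and 979 CPM, below both NK WT libraries and above both CD8 WT libraries. With the myeloid covariate, described below, the calls of Irf8 and Hhex were lost, as were most NK calls.

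The T-box factors, which both cell types need for effector function, were not called. Tbx21 (T-bet) was at 318 and 286 CPM in NK WT against 249.7 and 154 CPM in CD8 WT (log2 fold change 0.58, SE 0.38, edgeR FDR 0.601). Eomes was at 129 and 176 CPM in NK WT against 0.593 and 40.2 CPM in CD8 WT, so that CD8 WT replicate 1 was nearly without it (log2 fold change 2.90, SE 1.56, edgeR FDR 0.548). Both NK libraries lay above both CD8 libraries for both genes, and the test did not separate the difference from the spread.

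Killing genes gave few calls. Of 22 granule and death ligand genes tested, 1 was called in each direction, 10 lay without overlap in the NK and 6 in the CD8 direction, beside 21.6% and 19.5% of all genes tested, and the list had a median log2 fold change of 0.13. Gzmb was at 7001 and 4886 CPM in NK WT against 12748 and 9097 CPM in CD8 WT (log2 fold change -0.88, SE 0.57, edgeR FDR 0.598) and Prf1, the pore-forming perforin, at 2897 and 1855 CPM in NK WT against 655 and 791 CPM in CD8 WT (log2 fold change 1.72, SE 0.51, edgeR FDR 0.234). These levels placed CD8 above NK for Gzmb and NK above CD8 for Prf1 without overlap, and neither passed. Gzma was at 9127 and 9645 CPM in NK WT against 6218 and 248 CPM in CD8 WT (log2 fold change 1.54, SE 1.81, edgeR FDR 0.87). The CD8 replicates of Gzma lay far apart, and replicate 1 was nearer to the NK libraries than to replicate 2 on the log scale. Gzmc, at 444 and 1750.3 CPM in NK WT against 44.3 and 19.6 CPM in CD8 WT, also varied within NK cells.

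The calls were Gzmk and Ctsc. Gzmk, a granzyme with trypsin-like activity, was at 61.5 and 35.8 CPM in NK WT against 1056 and 801 CPM in CD8 WT (log2 fold change -4.25, SE 0.56, edgeR FDR 0.00516). Ctsc, the cathepsin that activates granzymes, was at 1511 and 1704 CPM in NK WT against 424 and 289 CPM in CD8 WT (log2 fold change 2.17, SE 0.29, edgeR FDR 0.00584). Macrophages carry this lysosomal cathepsin as well, and both NK WT libraries held myeloid transcripts, whose part in the call was not tested. Ctsc was at 470.0 and 373 CPM in NK KO, which overlaps the CD8 WT libraries, and at 258 and 283 CPM in NK KE, below both of them. With the myeloid covariate, described below, its call was lost (edgeR FDR 0.368), as were most NK calls, of which 11 of 46 remained. Fasl was at 589 and 487 CPM in NK WT against 416 and 608 CPM in CD8 WT and overlapped.

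Secreted factors gave 1 call in each direction among 18 genes tested, with a median of -0.11. Xcl1, the chemokine that attracts cross-presenting dendritic cells, was at 524 and 911 CPM in NK WT against 21.3 and 32.6 CPM in CD8 WT (log2 fold change 4.73, SE 0.65, edgeR FDR 0.00606). Gm20743, a noncoding transcript that overlaps Xcl1, was called too, at 67.6 and 70.0 CPM in NK WT against 0.296 and 0.145 CPM in CD8 WT, and without strand-specific counting the 2 cannot be fully told apart. Ltb, which encodes lymphotoxin-β, was higher in CD8 WT at 144 and 215 CPM in NK WT against 804 and 841 CPM in CD8 WT (log2 fold change -2.19, SE 0.32, edgeR FDR 0.0105). Ifng was at 93.3 and 96.4 CPM in NK WT against 205 and 158 CPM in CD8 WT (log2 fold change -0.94, SE 0.70, edgeR FDR 0.668). Ccl5 was at 2348 and 1799 CPM in NK WT against 2251 and 2591 CPM in CD8 WT (log2 fold change -0.22, SE 0.26, edgeR FDR 0.865). Ifng levels therefore did not overlap and Ccl5 levels did, and neither gene was called.

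Checkpoint and costimulatory receptors had calls in the CD8 direction alone. Of 20 genes, 3 were called higher in CD8 WT and 0 higher in NK WT, 11 lay in the CD8 direction and 0 in the NK direction at an unadjusted p under 0.05, DESeq2 on the 12 libraries called 6 and 0, and the median was -2.04. Without overlap, 14 lay in the CD8 and 2 in the NK direction, beside 19.5% and 21.6% of all genes tested, and 4 overlapped. Pdcd1, which encodes PD-1, was at 0.837 and 2.39 CPM in NK WT against 1442 and 1467 CPM in CD8 WT (log2 fold change -9.80, SE 1.30, edgeR FDR 0.0054). Lag3, a receptor for MHC class II, was at 87.7 and 34.8 CPM in NK WT against 621 and 795 CPM in CD8 WT (log2 fold change -3.53, SE 0.59, edgeR FDR 0.0213). Icos, a costimulatory receptor, was at 179.6 and 165 CPM in NK WT against 1250.0 and 1261 CPM in CD8 WT (log2 fold change -2.86, SE 0.33, edgeR FDR 0.00249). PD-1 transcripts were thus nearly restricted to the CD8 libraries in wild type, whereas NK cells held some Lag3 and Icos. Havcr2 (TIM-3) was at 26.4 and 56.2 CPM in NK WT against 586 and 537 CPM in CD8 WT (log2 fold change -3.77, SE 1.08, edgeR FDR 0.205), and Ctla4 at 274 and 48.0 CPM in NK WT against 1165 and 1175 CPM in CD8 WT (log2 fold change -2.86, SE 1.27, edgeR FDR 0.484). Neither overlapped between cell types, and neither was called.

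**Figure D3:**
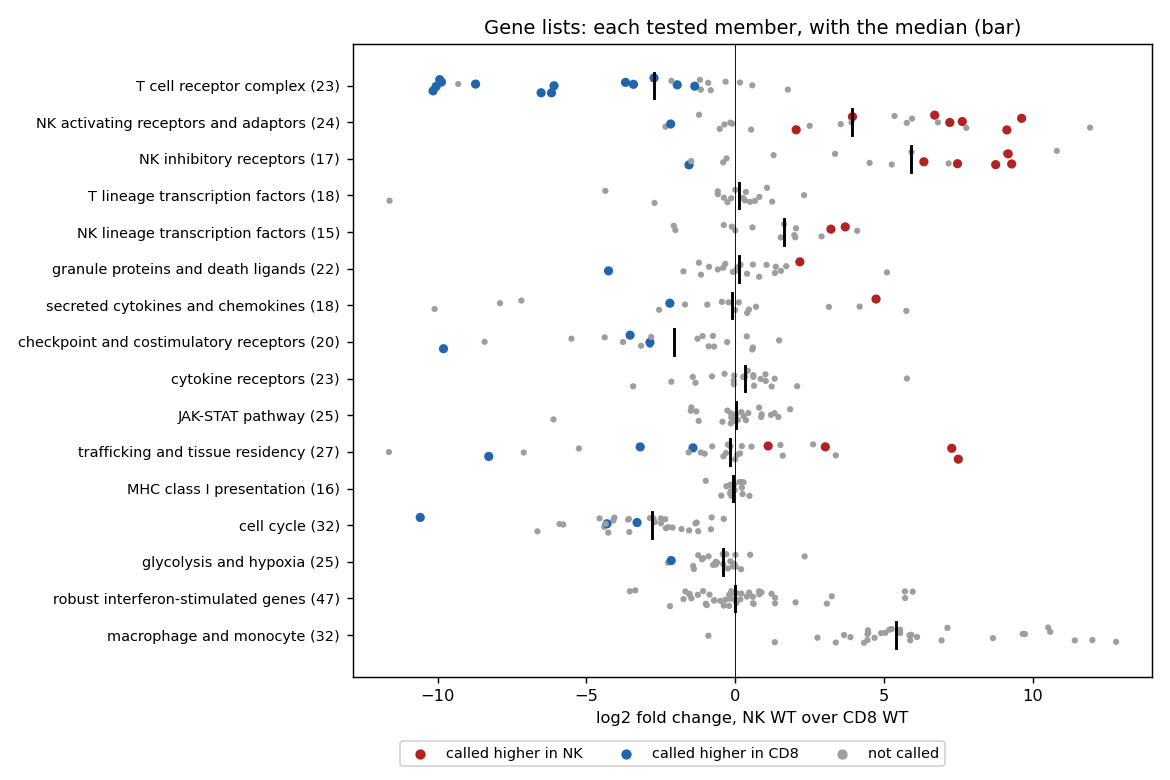
Each point is a tested gene of the list named on the left (number of genes tested in brackets), placed by its log2 fold change, NK WT over CD8 WT, with a black bar at the list median and coloured points for called genes. The medians of the T cell receptor, checkpoint and cell cycle lists lie at -2.73, -2.04 and -2.80, those of the NK receptor lists at 3.92 and 5.92, and that of the macrophage and monocyte list at 5.40 with 0 called.

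Cytokine receptors and the JAK-STAT pathway, in which TYK2 acts, showed 0 calls. For the 23 cytokine receptors tested, the median was 0.33, with 5 in the NK and 2 in the CD8 direction at an unadjusted p under 0.05 by edgeR. DESeq2 on the 12 libraries called 3 and 1. Without overlap, 11 lay in the NK and 4 in the CD8 direction, beside 21.6% and 19.5% of all genes tested. Il2rb, the receptor chain shared by IL-2 and IL-15, was at 3216 and 3539 CPM in NK WT against 1434 and 1903 CPM in CD8 WT (log2 fold change 1.02, SE 0.23, edgeR FDR 0.087). Il7r was at 21.1 and 13.7 CPM in NK WT against 279.7 and 95.1 CPM in CD8 WT (log2 fold change -3.43, SE 0.83, edgeR FDR 0.116). Both were without overlap, in opposite directions. For the 25 JAK-STAT genes, the median was 0.03, with 3 and 2 genes at an unadjusted p under 0.05 by edgeR and 0 and 1 called by DESeq2.

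Among the kinases, Tyk2 had a log2 fold change of -0.051 with an SE of 0.48, Jak2 of -0.26 with an SE of 0.71 and Jak3 of -0.43 with an SE of 0.91, and all 3 overlapped. Jak1 was at 1215 and 990.2 CPM in NK WT against 592 and 597 CPM in CD8 WT (log2 fold change 0.89, SE 0.24, edgeR FDR 0.165). Stat4, the factor downstream of IL-12, was at 226 and 203 CPM in NK WT against 268 and 207 CPM in CD8 WT and overlapped. Irf7, an interferon-induced regulator, was at 607 and 453 CPM in NK WT against 307 and 299 CPM in CD8 WT and did not overlap or pass the test (log2 fold change 0.80, SE 0.64, edgeR FDR 0.706).

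Interferon-stimulated genes and antigen presentation gave no edgeR call. Of 47 robust interferon-stimulated genes tested out of 65, edgeR called 0, with 1 in the NK and 4 in the CD8 direction at an unadjusted p under 0.05, DESeq2 on the 12 libraries called 0 and 1, and the median was 0.00. Of 16 MHC class I presentation genes edgeR and DESeq2 called 0, 1 and 2 lay under an unadjusted p of 0.05, and the median was -0.083. B2m, the invariant light chain, was at 11038 and 9774 CPM in NK WT against 11199 and 11509 CPM in CD8 WT.

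Adhesion and homing receptors differed in both directions. Of 27 genes, 4 were called higher in NK WT and 3 higher in CD8 WT, with a median of -0.16. Itga2, the chain CD49b carried by circulating NK cells, was at 28.6 and 67.7 CPM in NK WT against 0.296 and 0.218 CPM in CD8 WT, and Itgb1, its partner, at 1263 and 1355 CPM in NK WT against 672 and 542 CPM in CD8 WT (log2 fold change 1.11, SE 0.20, edgeR FDR 0.0306). Itgb1 was thus shared by both cell types with a modest difference, and Itga2 was near 0 in CD8 cells. Itgax, which encodes CD11c, was at 312 and 205 CPM in NK WT against 2.59 and 0.726 CPM in CD8 WT (log2 fold change 7.28, SE 1.38, edgeR FDR 0.0425). It was as high in NK KO replicate 2 and both NK KE libraries, at 304, 269.7 and 318 CPM, where myeloid transcripts were few. The Itgax call was lost with the myeloid covariate, described below, as were most NK calls, and in the fit that was not robust.

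In the CD8 direction, Ly6c2, a surface protein of memory-like and effector CD8 T cells, was at 328 and 507 CPM in NK WT against 4740.5 and 2885 CPM in CD8 WT (log2 fold change -3.19, SE 0.32, edgeR FDR 9.70e-04). Cxcr3, the receptor for interferon-induced chemokines, was at 219.9 and 224 CPM in NK WT against 590.0 and 594 CPM in CD8 WT (log2 fold change -1.42, SE 0.21, edgeR FDR 0.0107). Ccr8 was at 0.251 and 1.08 CPM in NK WT against 89.5 and 334 CPM in CD8 WT (log2 fold change -8.28, SE 0.88, edgeR FDR 0.00137). The CD8 replicates of Ccr8 differed several-fold, yet both were far above NK cells. Cxcr6, at 2.85 and 51.7 CPM in NK WT against 3733 and 3777 CPM in CD8 WT, was not called, and its NK libraries lay far apart (log2 fold change -7.10, SE 2.15, edgeR FDR 0.272).

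Proliferation genes had calls in the CD8 direction alone. Of 32 cell cycle genes, 3 were called higher in CD8 WT, 16 lay in that direction at an unadjusted p under 0.05, 0 were called or under that p in the NK direction, and DESeq2 on the 12 libraries called 14 and 0. In 28 of the 32 both CD8 libraries were above both NK libraries, beside 19.5% of all genes tested, and the median was -2.80. Birc5, which encodes survivin, was at 20.8 and 3.62 CPM in NK WT against 181 and 301 CPM in CD8 WT (log2 fold change -4.31, SE 0.78, edgeR FDR 0.0343). Mcm3, of the replicative helicase, was at 9.96 and 41.6 CPM in NK WT against 262 and 245 CPM in CD8 WT (log2 fold change -3.30, SE 0.61, edgeR FDR 0.0385). Nusap1, a spindle protein, held 2 counts in all in the NK WT libraries and was at 85.5 and 190.5 CPM in CD8 WT, a ratio of 1719 with a 95% counting interval of 476 to 14194.5. Mki67 was at 87.0 and 49.9 CPM in NK WT against 151 and 327 CPM in CD8 WT and was not called.

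Of 25 glycolysis and hypoxia genes, 1 was called, in the CD8 direction, with a median of -0.42. By edgeR, 5 lay in the CD8 and 0 in the NK direction at an unadjusted p under 0.05. Without overlap, 11 lay in the CD8 and 1 in the NK direction, beside 19.5% and 21.6% of all genes tested. Hif1a, the oxygen-regulated transcription factor, was at 174 and 185 CPM in NK WT against 936 and 657 CPM in CD8 WT (log2 fold change -2.15, SE 0.34, edgeR FDR 0.0165). The enzymes were not called, as Gapdh at 1339.8 and 783 CPM in NK WT against 1793 and 1756 CPM in CD8 WT and Ldha at 2870.5 and 1780.0 CPM in NK WT against 3105 and 3039.9 CPM in CD8 WT.

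Outside the lists, the smallest FDR values of the NK direction belonged to Car2, Gas7, Gm20743, Klra14-ps, Rnf130 and Arrdc4. Car2, a carbonic anhydrase, was at 695 and 514 CPM in NK WT against 1.41 and 0.726 CPM in CD8 WT (log2 fold change 9.13, SE 0.65, edgeR FDR 5.16e-05), and Gas7 at 222 and 243 CPM in NK WT against 0.371 and 0.653 CPM in CD8 WT (log2 fold change 8.80, SE 0.76, edgeR FDR 2.83e-04). Arrdc4, an α-arrestin, held 1 count in all in the CD8 WT libraries and was at 44.6 and 25.8 CPM in NK WT, with a ratio of 960.5 and a 95% counting interval of 172 to 37939.7. In the CD8 direction the genes were Slamf1, Ms4a6b, Ndfip1, Adgrg5, Trbv16 and Runx2. Slamf1, a SLAM family receptor, was at 0 and 0.308 CPM in NK WT against 215 and 280.3 CPM in CD8 WT (log2 fold change -10.52, SE 0.97, edgeR FDR 4.67e-04). Ms4a6b was at 603 and 704 CPM in NK WT against 2507 and 2197 CPM in CD8 WT (log2 fold change -1.85, SE 0.21, edgeR FDR 0.00226), and Runx2, a RUNX factor, at 18.7 and 22.8 CPM in NK WT against 157 and 140.5 CPM in CD8 WT (log2 fold change -2.84, SE 0.36, edgeR FDR 0.00393). Slamf1 was thus nearly absent from NK libraries, whereas Ms4a6b and Runx2 were present in both cell types. Trbv16, a variable segment, was at 93.5 and 366 CPM in CD8 WT, where replicate 2 was the higher by far, and held 7 counts in all in NK WT. Reads of several named genes can belong to an overlapping gene, as for Gas7 (Glp2r), Themis, Hif1a, Runx2, Cd9, Nusap1 (Oip5) and Elac2 (Arhgap44), and these levels are uncertain to that extent.

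For 3 called genes both libraries of one cell type had no count, so only a bound can be given, against 3 counts per library. Trib2 was at 95.8 and 28.6 CPM in CD8 WT, at least 258-fold higher than in NK WT. Elac2 was at 35.4 and 44.5 CPM in CD8 WT, at least 166-fold higher. Fcrl6 was at 45.5 and 32.5 CPM in NK WT, at least 177-fold higher than in CD8 WT. A further 6 NK calls and 9 CD8 calls rested on 1 to 3 counts in all in the lower cell type. These 3 genes were named after their values were seen.

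Transcripts of macrophages and monocytes were carried by the NK WT libraries. The most abundant of the list were Apoe at 7119 and 5443 CPM in NK WT against 47.7 and 41.9 CPM in CD8 WT, Ctss at 2840.2 and 3426 CPM in NK WT against 304 and 618 CPM in CD8 WT, C1qb at 2429 and 2294 CPM in NK WT against 84.6 and 16.8 CPM in CD8 WT, Lyz2 at 2505 and 2098 CPM in NK WT against 18.2 and 61.2 CPM in CD8 WT and Cd74 at 1228 and 3215 CPM in NK WT against 50.5 and 98.0 CPM in CD8 WT. In 31 of 32 genes tested both NK WT libraries lay above both CD8 WT libraries, beside 21.6% of all genes tested, and the median log2 fold change was 5.40. Csf1r, the defining receptor for macrophage growth factor, was at 292 and 302 CPM in NK WT against 0.222 and 0.145 CPM in CD8 WT. Yet edgeR called 0 of the 32 on the 12 libraries, with 22 at an unadjusted p under 0.05. Without NK KO replicate 1, the mutant NK library richest in these transcripts, edgeR called 4, an alternative chosen after seeing the data. On the 4 WT libraries alone edgeR called 10, and DESeq2 called 15 on the 12 and 28 on the 4. The NK gate required NK1.1, which macrophages are not known to carry.

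With the log2 summed myeloid level as a covariate, 11 of the 46 NK calls and 15 of the 57 CD8 calls remained, and the sign of all 103 was kept. Among the NK genes that remained were Car2, Gas7, Gm20743, Klra14-ps, Klra8, Klrb1b, Klrb1c, Ncr1, Trdv4 and Tyrobp. The covariate is high in both NK WT libraries and low in both CD8 WT libraries, so by construction it takes up part of the cell type difference.

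Lists of other cell types were summed in the same way. The γδ T cell list, of which Trdc and Trdv4 were called, is given with the mutants. The platelet and red cell list, of which Pf4 was the most abundant gene, summed to 125 and 173 CPM in NK WT and 13.7 and 3.05 CPM in CD8 WT. The B and plasma cell list summed to 481 and 607 CPM and 190.1 and 474 CPM, nearly all of it Ighm, with Ms4a1 and Fcer2a at 0 in the 4 libraries. The dendritic cell list summed to 603 and 432 CPM and 282 and 343 CPM, with Cd209a, Siglech and Mgl2 at 0. The neutrophil list stayed at or below 38.5 CPM, the mast cell and basophil list at or below 12.9 CPM and the tumour epithelium list at or below 41.1 CPM in every WT library. In the dendritic cell list Itgax, described above, was called. By edgeR the platelet and red cell, B and plasma cell, neutrophil, mast cell and tumour epithelium lists had 0 calls, with 0 genes in the NK and 2 in the CD8 direction at an unadjusted p under 0.05, and DESeq2 on the 12 libraries called 0 and 1.

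The CD4 and regulatory T cell list summed to 321 and 82.9 CPM in NK WT and 1264 and 1273 CPM in CD8 WT, most of it Ctla4, with Cd4 and Cd40lg at 0 in the 4 libraries. The fibroblast and endothelium list held 423 and 249 CPM and 427 and 462 CPM, led by Thy1, a gene that T cells transcribe as well, which was called at 127 and 99.8 CPM in NK WT against 387 and 350.2 CPM in CD8 WT (log2 fold change -1.70, SE 0.25, edgeR FDR 0.0113). The list of innate lymphoid cells, led by Ncr1, held 1104 and 1145 CPM and 677 and 351 CPM. Of 16 dissociation stress genes edgeR called 0, with 2 in the NK direction at an unadjusted p under 0.05 and 1 called by DESeq2 on the 12 libraries. Their sum was 3320.2 and 3500.2 CPM in NK WT and 2445 and 2656 CPM in CD8 WT. Mitochondrial transcripts took 3.10 and 2.67% of counts in NK WT and 6.62 and 4.50% in CD8 WT. The part of these differences in the calls was not tested.

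**Figure D4:**
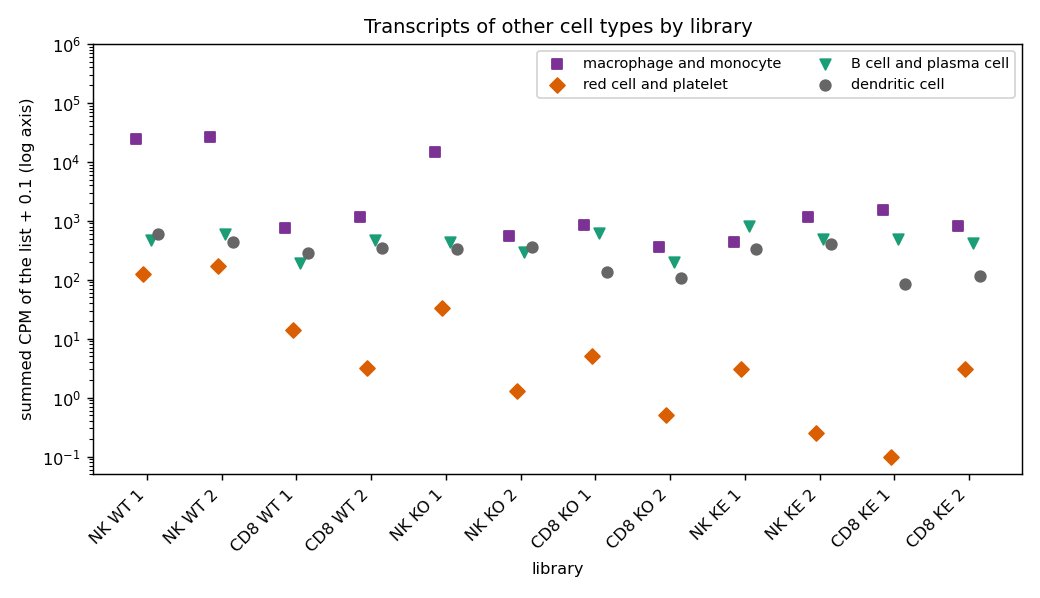
Each point is the summed level of a marker list in 1 of the 12 libraries, CPM + 0.1 on a log axis. Macrophage and monocyte transcripts sum to 24562 and 26152 CPM in the NK WT libraries and 14643 CPM in NK KO replicate 1, above the 360.5 to 1547 CPM of the other 9 libraries.

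The same contrast in the mutants shares no library with the wild-type one, though all contrasts share the estimate of spread. Of the 46 genes called higher in NK WT, 44 had a positive log2 fold change in KO and 43 in KE, and 28 and 23 were called there, where 0.324% and 0.331% of all genes tested were called higher in NK. Of the 57 genes called higher in CD8 WT, 56 had a negative log2 fold change in KO and 55 in KE, and 40 and 30 were called, beside 0.58% and 0.369% of all genes tested. Calls in both mutants numbered 21 and 29, and calls in neither numbered 16 and 16. The 46 include the gated gene Klrb1c, and the 57 include the gated genes Cd8a and Cd3e, which were not taken out. The same gates fixed the direction of these genes in the mutant libraries, so their agreement is no finding. The sign counts have no share over all genes tested beside them and are descriptions. Cd8b1 had log2 fold changes of -9.95 in KO and -10.29 in KE, and Ncr1 of 9.77 and 10.80. Xcl1, by contrast, had 2.02 and 0.32, and Cxcr3 had -0.33 and -0.0063, and neither was called in a mutant. An effect called in wild type and not in a mutant is not by this shown to differ between them.

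**Figure D5:**
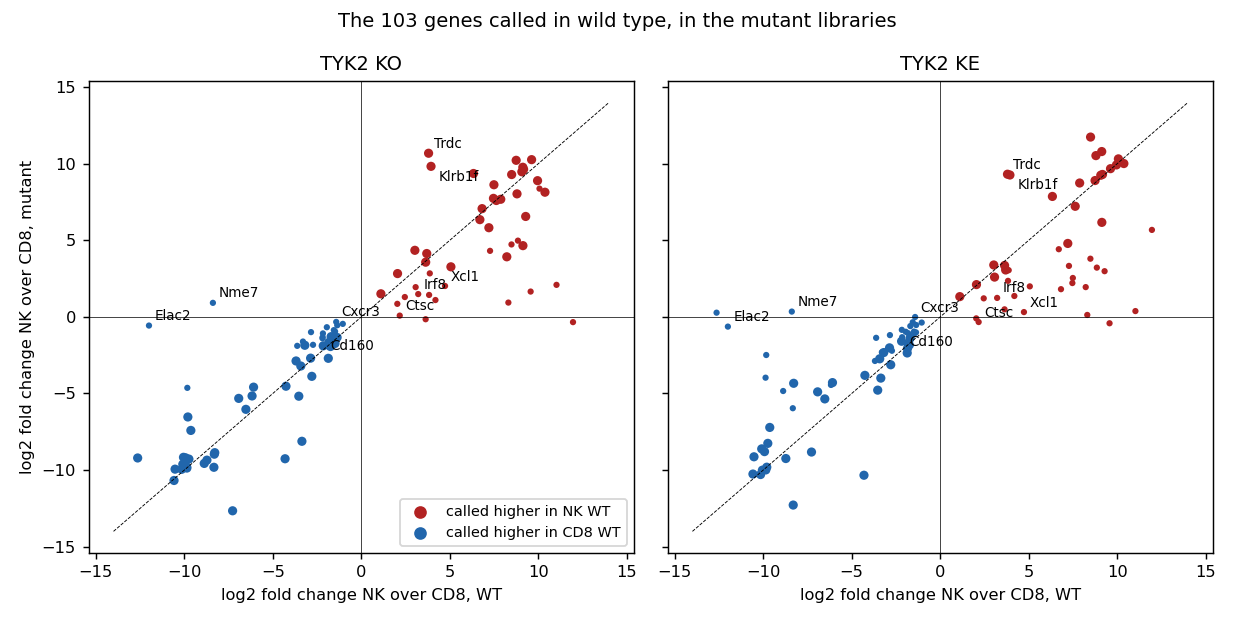
Each point is 1 of the 103 genes called in wild type, with its log2 fold change, NK over CD8, in wild type on the horizontal axis and in KO (left) or KE (right) on the vertical axis. Large points were also called in that mutant, the dashed line marks equal values, and Trdc and Klrb1f (wild-type values 3.80 and 3.94) lie above it in both panels.

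The difference itself, the NK over CD8 log2 fold change in WT minus the mean of those in KO and KE, was called for 2 of 13279 genes (0.0151%), with 757 at an unadjusted p under 0.05. The 2 genes were Trdc, the constant segment of the T cell receptor δ chain, and Klrb1f, an NKR-P1 receptor. Trdc was at 113 and 215 CPM in NK WT against 10.6 and 12.8 CPM in CD8 WT. It was at 240.1 and 314 CPM in NK KO, 176 and 134 CPM in NK KE, 0.230 and 0.0830 CPM in CD8 KO and 0.248 and 0.220 CPM in CD8 KE. The CD8 WT libraries thus held more than 10 CPM where all 4 mutant CD8 libraries held less than 1, and the difference was -6.20 (SE 0.62, edgeR FDR 0.015).

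Klrb1f was at 325 and 456 CPM in NK WT against 29.7 and 21.1 CPM in CD8 WT. It was at 672 and 436 CPM in NK KO, 859 and 522 CPM in NK KE, 0.536 and 0.664 CPM in CD8 KO and 1.74 and 0.513 CPM in CD8 KE (difference -5.61, SE 0.62, edgeR FDR 0.019). As with Trdc, both CD8 WT libraries lay above all 4 mutant CD8 libraries. NK libraries differed less: for Trdc both NK KO libraries lay above NK WT and NK KE overlapped it, and for Klrb1f both NK KE libraries lay above NK WT and NK KO overlapped it. Neither call was made when NK WT replicate 1, NK WT replicate 2 or CD8 WT replicate 1 was left out. Both NK markers Ncr1 and Klrb1c stayed at or below 2.32 CPM in the CD8 WT libraries. The variable segment Trdv4 was at 163 and 157 CPM in NK WT and held 3 counts in all in CD8 WT, a ratio of 1453 with a 95% counting interval of 497 to 7044. Over the 9 γδ T cell genes, the sum was 275 and 372 CPM in NK WT and 10.8 and 12.9 CPM in CD8 WT, and NK cells are known to carry unrearranged δ chain transcripts. The next genes by FDR, Gm20743 at a difference of 5.29 and an edgeR FDR of 0.0847 and Ctsc at 2.30 and 0.119, were not called. Trdc overlaps Trdv5, and Klrb1f is a paralog of the other NKR-P1 genes, so part of their reads is uncertain.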

How the data were processed

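RNA of 300 sorted cells per library was sequenced from tumour NK and CD8 T cells. The authors trimmed reads with Trimmomatic, aligned them with STAR to GRCm38/mm10 and counted uniquely aligned reads in exons. The deposited values are raw counts per gene, not normalised. The labels call the libraries stranded, but a Nextera kit does not mark strand, and strand use in counting is not stated.

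Groups came from the sample titles. The 12 libraries were fitted in edgeR 4.0.16 (R 4.3.3) with robust quasi-likelihood F-tests, 6 group means, TMM factors and a mean normalised count of at least 10, which left 13279 genes. SE is the log2 fold change over the root of F, and FDR is by Benjamini-Hochberg over all genes tested. Residual degrees of freedom were 6 and the common biological coefficient of variation was 109.24%. In genes that varied this much, small differences could not be separated from the spread. Single genes varied less, and the smallest called log2 fold changes were 1.109 in size in the NK and 1.045 in the CD8 direction. With 2 libraries per group, an exact permutation test could not reach p < 0.05, and none was used. The scripts were tested on simulated counts. Alternatives were RLE factors, other filters, DESeq2 1.42.0, no robust step, a replicate block, each WT library left out, the WT libraries alone, a myeloid covariate and, chosen after seeing the data, NK KO replicate 1 left out.

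Members and gene lists were chosen with earlier results of these data known. Genes were named by a rule: a set of receptors, kinases and effectors in every case, up to 4 called genes per list and direction, 6 outside the lists, the most abundant genes of other cell types and the leading differences from the mutants. Further genes of the lists, and Trbj1-1, Trbj1-2, Cd9, Trib2, Elac2 and Fcrl6, were named after their values were seen. Promoters are RefSeq sequences for GRCm38.p6, matched by symbol to 9372 of 13279 genes. Results for 2 of the called genes are not reported here by name.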

Additional observations from a re-analysis of the deposited data

Results flagged for a closer look

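The difference between NK and CD8 cells itself differed between WT and mutants for 2 genes, by the edgeR test of the WT log2 fold change minus the mean of KO and KE. For Trdc this difference was -6.20 (SE 0.62, edgeR FDR 0.015). Trdc was at 10.6 and 12.8 CPM in the CD8 WT libraries and at 0.083 to 0.248 CPM in the 4 mutant CD8 libraries, so both WT libraries showed the direction. For Klrb1f the difference was -5.61 (SE 0.62, edgeR FDR 0.019), with 29.7 and 21.1 CPM in the CD8 WT libraries and 0.513 to 1.74 CPM in the mutant CD8 libraries. Neither difference was called with the replicate block or the myeloid covariate, and leaving out some single WT libraries also removed both calls, as given above. Groups of 2 libraries were too small for a search for outlying samples.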

How the results depend on the processing

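All 103 called genes kept their sign under every alternative run, and the calls themselves depended on the setting. The numbers called higher in NK and in CD8, 46 and 57 here, were 308 and 229 with no filter on low counts (a fit whose prior degrees of freedom were infinite, so that the spread of single genes no longer entered), 436 and 369 with DESeq2 on the 12 libraries, 631 and 399 with DESeq2 on the 4 WT libraries, 63 and 38 with edgeR on those 4, and 11 and 21 with the myeloid covariate. With 1 library left out, they ranged from 25 to 53 and from 24 to 70, the highest values being those without NK KO replicate 1. The difference from the mutants, called for 2 genes, was called for 180 with no filter, 249 with DESeq2, 0 with the covariate and 0 to 4 with 1 library left out (4 without CD8 WT replicate 2 and 4 without NK KO replicate 1). Same-numbered NK and CD8 libraries did not deviate together across genes (correlation of same-numbered deviations 0.013 in WT, 0.0378 in KO and 0.0031 in KE). These values cannot tell whether same-numbered libraries came from the same mouse, which the labels do not say. With the number as a replicate block, 22 and 23 genes were called, and 0 for the difference from the mutants. RLE factors, the stricter filter and the fit that was not robust gave counts within 1.5 times.

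The genes whose log2 fold change changed sign were not called in the fit reported above. With the replicate block, Tyk2 was at 0.005 and Mmp8 at -0.933. With the myeloid covariate, Tyk2 was at 0.717, Jak2 at 1.981, Fasl at -0.204, Apoe at -3.711, C1qb at -3.89, Lyz2 at -2.105, Cd74 at -0.51, Mmp8 at -2.791, Ctla4 at 1.759, Lgals4 at 1.082 and Pf4 at -5.238. With 1 library left out, the ranges were -0.409 to 0.426 for Tyk2, -0.686 to 0.345 for Jak2, -2.439 to 0.661 for Jak3, -0.321 to 0.05 for Stat4, -0.176 to 0.37 for Fasl, -0.318 to 0.23 for Bst2, -10.11 to 7.008 for Mmp8, -0.839 to 0.425 for Lgals4 and -0.278 to 0.544 for Kcnj8. The cause of these shifts was not tested. With 2 libraries per group, genes near the floor of 3 counts are the least certain.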
